A study of Homo sapiens with 15 samples.

Results

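The major histocompatibility complex (MHC) on chromosome 6p21 was followed as the set of open-chromatin regions whose midpoint lay in this interval, from a first region starting at 28511565 to a last one ending at 33455034 on chromosome 6 (hg38). Regions were made by merging the ATAC-seq peaks of all 15 libraries wherever they overlapped by at least 1 bp, and 544 of the 222814 merged regions of the genome fell in the MHC. ATAC-seq uses a transposase that inserts sequencing adapters into accessible DNA. The libraries came from HPAF-II, an established human pancreatic adenocarcinoma line, which per the labels was given either 1 µM Lgk974, an inhibitor of the enzyme porcupine that WNT proteins need for secretion, or the solvent DMSO. There were 4 Lgk974 and 4 DMSO libraries at 24 h, and 3 Lgk974 and 4 DMSO libraries at 48 h. All came from the same cell line. Whether replicates were grown as separate cultures is not stated in the labels, and the p-values therefore reflect variation between these libraries alone, part of which may be technical. The study asked how blocking WNT secretion alters chromatin. The files used here are 1 peak list per library, so each library gives presence or absence of a call at a region, and read depth is unknown.

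The MHC holds the genes by which cells show peptides to T cells. Class I molecules, made by genes such as HLA-B and HLA-C, present peptides from inside the cell on nearly every cell type, after the immunoproteasome subunits PSMB8 and PSMB9 have cut them and the transporter TAP1 and TAP2 has carried them into the endoplasmic reticulum. Class II molecules (HLA-DR, HLA-DQ and HLA-DP) present peptides from endocytosed material, chiefly on professional antigen-presenting cells, and are switched on elsewhere by interferon gamma through the coactivator CIITA. The class III stretch between them holds complement, cytokine and housekeeping genes, and the class I end also holds epithelial genes such as the membrane mucins MUC21 and MUC22. Class I and class II promoters carry known elements: the ISRE bound by interferon regulatory factors, a kappaB site, and the X1, X2 and Y boxes bound by RFX, CREB and NF-Y proteins.

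The sequences of 11 promoters are given to show these elements where the libraries had, or lacked, a peak. Each is RefSeq's GRCh38.p14 reference window of 300 bases, from 250 bases before to 50 bases after the annotated start, read in the direction of the gene. They are reference sequence and not that of HPAF-II, and HLA genes vary much between people. Capitals mark matches, on either strand, to the ISRE core (GAAA, any 2 bases, GAAA), the kappaB consensus, the X1 box core CCTAGNNAC, the X2 box or CRE core TGACG and the Y box ATTGG, where N is any base. Matches that overlap run together. A match is a description of letters and not evidence of binding. Elements that depart from these letters are not marked, so lower case does not show that an element is absent. The classical class I genes and the TAP1 and PSMB9 pair stand for promoters called in all 15 libraries.
HLA-B (chr6:31357130-31357429, minus strand): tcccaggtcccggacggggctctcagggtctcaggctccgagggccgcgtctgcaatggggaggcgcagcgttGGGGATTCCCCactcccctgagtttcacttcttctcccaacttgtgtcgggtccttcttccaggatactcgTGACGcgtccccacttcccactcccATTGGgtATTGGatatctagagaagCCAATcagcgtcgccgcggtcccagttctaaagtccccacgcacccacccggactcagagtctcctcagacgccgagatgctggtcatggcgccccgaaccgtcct
HLA-C (chr6:31272043-31272342, minus strand): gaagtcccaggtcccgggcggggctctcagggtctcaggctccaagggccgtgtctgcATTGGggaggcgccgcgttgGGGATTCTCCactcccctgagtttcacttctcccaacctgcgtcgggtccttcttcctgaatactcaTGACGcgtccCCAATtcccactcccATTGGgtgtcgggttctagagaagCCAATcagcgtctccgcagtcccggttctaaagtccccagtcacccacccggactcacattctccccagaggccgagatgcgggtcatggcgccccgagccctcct
TAP1 (chr6:32853655-32853954, minus strand): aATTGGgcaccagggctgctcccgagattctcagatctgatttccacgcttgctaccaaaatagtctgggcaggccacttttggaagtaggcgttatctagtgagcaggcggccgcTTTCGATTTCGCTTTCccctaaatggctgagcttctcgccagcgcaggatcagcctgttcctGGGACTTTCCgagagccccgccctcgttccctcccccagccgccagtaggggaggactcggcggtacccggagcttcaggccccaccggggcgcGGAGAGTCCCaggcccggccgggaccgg
PSMB9 (chr6:32853942-32854241, plus strand): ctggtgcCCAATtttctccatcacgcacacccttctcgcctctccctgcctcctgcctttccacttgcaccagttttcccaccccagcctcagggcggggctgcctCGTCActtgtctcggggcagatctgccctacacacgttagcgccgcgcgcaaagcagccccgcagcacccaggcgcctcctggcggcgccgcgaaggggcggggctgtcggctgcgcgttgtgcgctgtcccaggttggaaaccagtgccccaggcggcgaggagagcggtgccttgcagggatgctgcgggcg

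The class II genes are shown because their promoters had peaks in all, some or none of the libraries. HLA-DMA and HLA-DMB were called in all 15, HLA-DPB1 in 10, this HLA-DPA1 window in 1, and HLA-DQA1 and HLA-DRB1 in 0. The HLA-DPA1 window shown lies inside HLA-DPB1. Another HLA-DPA1 window, 33073600 to 33073899, is not shown and was called in 1 library. LST1 is shown because it had the smallest p of any MHC gene, and its window was called in 0 libraries.
HLA-DMA (chr6:32953048-32953347, minus strand): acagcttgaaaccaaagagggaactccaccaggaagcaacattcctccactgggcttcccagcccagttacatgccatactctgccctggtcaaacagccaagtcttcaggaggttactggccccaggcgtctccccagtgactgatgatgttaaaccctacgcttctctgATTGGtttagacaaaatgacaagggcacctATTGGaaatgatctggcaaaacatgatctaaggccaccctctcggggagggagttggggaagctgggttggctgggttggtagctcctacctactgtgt
HLA-DMB (chr6:32940979-32941278, minus strand): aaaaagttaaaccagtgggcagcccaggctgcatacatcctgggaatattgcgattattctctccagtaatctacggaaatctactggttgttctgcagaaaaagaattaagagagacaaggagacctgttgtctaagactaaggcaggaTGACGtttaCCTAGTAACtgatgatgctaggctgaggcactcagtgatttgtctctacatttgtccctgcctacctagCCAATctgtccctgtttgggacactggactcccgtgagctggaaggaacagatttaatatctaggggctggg
HLA-DPB1 (chr6:33075740-33076039, plus strand): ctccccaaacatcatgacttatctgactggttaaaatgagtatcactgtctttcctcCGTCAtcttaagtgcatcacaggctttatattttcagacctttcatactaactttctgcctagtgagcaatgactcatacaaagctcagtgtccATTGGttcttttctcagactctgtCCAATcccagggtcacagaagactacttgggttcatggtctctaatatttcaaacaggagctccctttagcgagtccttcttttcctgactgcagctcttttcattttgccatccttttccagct
HLA-DPA1 (chr6:33080699-33080998, minus strand): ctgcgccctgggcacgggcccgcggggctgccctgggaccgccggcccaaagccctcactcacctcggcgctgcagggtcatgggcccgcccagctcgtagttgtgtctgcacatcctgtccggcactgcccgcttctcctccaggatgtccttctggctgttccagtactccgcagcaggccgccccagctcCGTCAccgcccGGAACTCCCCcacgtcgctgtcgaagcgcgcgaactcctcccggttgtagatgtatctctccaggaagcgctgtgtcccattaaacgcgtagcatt
HLA-DQA1 (chr6:32637156-32637455, plus strand): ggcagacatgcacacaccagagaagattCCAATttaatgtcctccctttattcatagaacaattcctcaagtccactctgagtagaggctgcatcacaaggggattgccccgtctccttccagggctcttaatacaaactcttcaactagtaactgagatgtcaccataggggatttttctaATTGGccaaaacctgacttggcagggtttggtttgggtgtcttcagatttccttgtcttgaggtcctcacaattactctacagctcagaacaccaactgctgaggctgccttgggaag
HLA-DRB1 (chr6:32589799-32590098, minus strand): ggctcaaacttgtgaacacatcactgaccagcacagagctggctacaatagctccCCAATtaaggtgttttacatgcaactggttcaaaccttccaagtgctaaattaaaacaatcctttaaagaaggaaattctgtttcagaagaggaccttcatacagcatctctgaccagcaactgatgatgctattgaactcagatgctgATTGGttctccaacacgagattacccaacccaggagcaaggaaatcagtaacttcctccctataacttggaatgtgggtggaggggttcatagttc
LST1 (chr6:31586027-31586326, plus strand): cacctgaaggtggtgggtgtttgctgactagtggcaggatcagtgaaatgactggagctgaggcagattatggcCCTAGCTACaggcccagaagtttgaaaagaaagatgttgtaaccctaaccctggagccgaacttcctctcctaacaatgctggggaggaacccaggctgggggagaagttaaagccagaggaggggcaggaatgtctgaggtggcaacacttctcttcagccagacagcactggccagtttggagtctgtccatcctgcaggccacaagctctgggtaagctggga

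The line and the lists were checked on markers fixed for cell types. Of 10 genes that mark pancreatic ductal epithelium and adenocarcinoma, 9 had a peak within 1 kb of a gene end in all 15 libraries. Among 8 leukocyte genes 4 were called in all 15 libraries, namely CD3E, CD14, SPI1 and LYZ, while ITGAX was called in 14, CD79A in 12 and PTPRC, the common leukocyte antigen CD45, in 2. A peak within 1 kb of an end can belong to a neighbouring gene. Of 6 fibroblast and endothelial genes, COL1A1 was called in 15, PDGFRA in 8, CDH5 and KDR in 1 each, and COL3A1 and PECAM1 in 0. Library lists ran from 53610 to 127886 peaks, and 3 libraries stood apart. The 2 shortest lists were those of replicate 3 of Lgk974 at 24 h and at 48 h, and the longest was that of DMSO 24 h replicate 3. Their mean overlap with the other libraries over MHC regions (regions shared divided by regions called in either) was 0.607, 0.661 and 0.620, against 0.725 to 0.763 for the other 12 libraries. The regions and genes with an unadjusted p under 0.05 are given with and without them.

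The MHC was dense in open chromatin and much of it was open in every library. On chromosome 6 cut into 33 tiles of the same length, the MHC tile held 544 regions and ranked 1, the other tiles holding 17 to 525 with a median of 256. In the MHC 176 regions (32.4%) were called in all 15 libraries, against 15.8% of the regions in the rest of the genome. Only 103 (18.9%) were called in 1 library, against 39.5% in the rest of the genome, and 39 of those 103 came from DMSO 24 h replicate 3. Of the MHC regions 28.3% lay within 1 kb of the end of a protein-coding gene, against 9.46% elsewhere. Within each class of position the share called in all 15 libraries was higher in the MHC than elsewhere: 57.8% against 48.1% at gene ends, 22.5% against 12.9% inside genes and 22.2% against 12.1% between genes. These shares are descriptions, since neighbouring regions are not independent. MHC regions had a median width of 499.5 bp, against 395 bp elsewhere.

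Open chromatin was uneven along the MHC. The class I stretch from HLA-F to MICB held 228 regions (127.5 per Mb), of which 91 (39.9%) were called in all 15 libraries. Class III, from MICB to HLA-DRA, held 124 regions (133.5 per Mb), with 43 (34.7%) in all 15. Class II, from HLA-DRA to HLA-DPB2, was sparse, with 52 regions (75.4 per Mb) and 9 (17.3%) in all 15. The extended class I stretch before HLA-F, which carries the olfactory receptor genes, held 94 regions (77.5 per Mb) with 13 (13.8%) in all 15, and the extended class II stretch after HLA-DPB2, with housekeeping genes such as RPS18 and RXRB, held 46 (131.1 per Mb) with 20 (43.5%). The widest MHC region in all 15 libraries, 32852675 to 32854981 (2307 bp), covered the shared promoter of TAP1 and PSMB9.

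**Figure D1:**
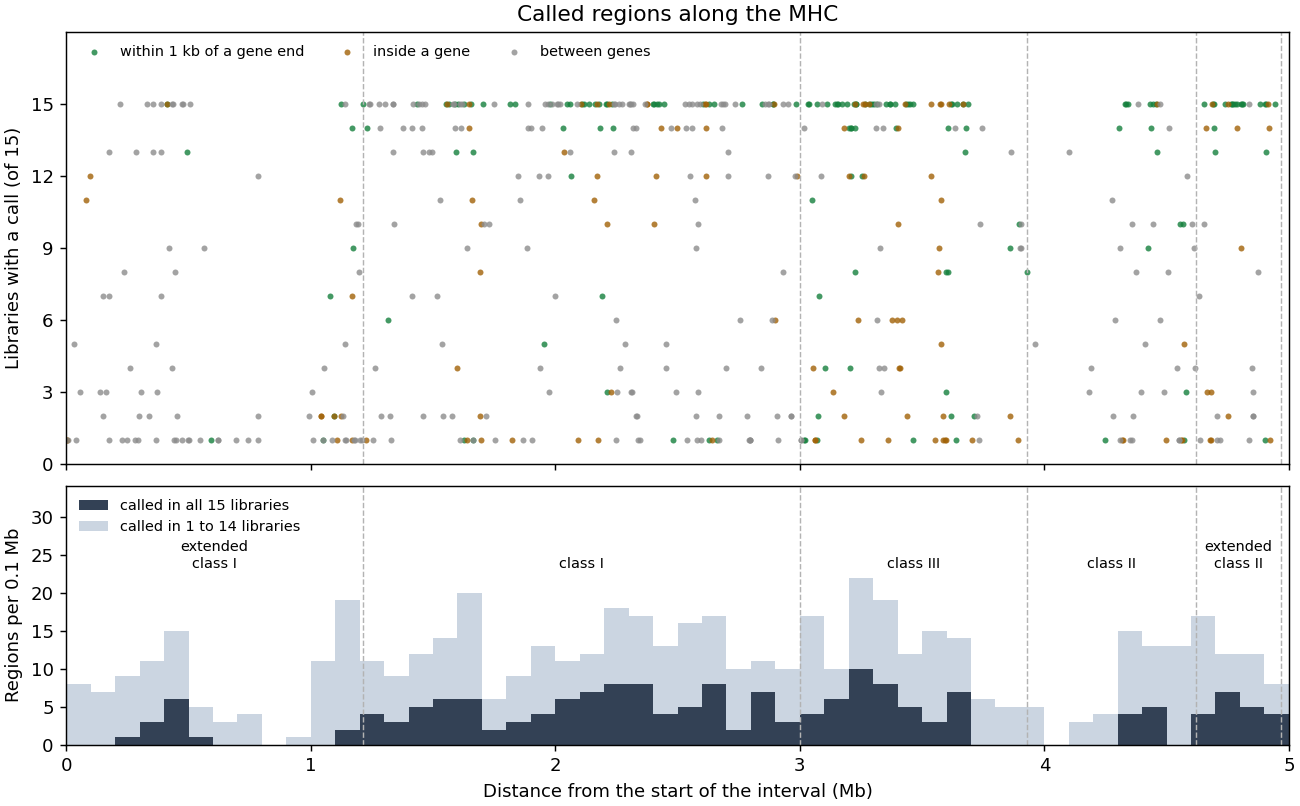
Top, each of the 544 MHC regions by its distance in Mb from the start of the interval and the number of libraries (of 15) that called it, coloured by position relative to protein-coding genes. Bottom, regions per 0.1 Mb, with those called in all 15 libraries in dark. Class I and class III are dense in regions called in all 15 libraries, and class II and the extended class I stretch are sparse.

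The class I genes described here, HLA-G aside, were called in every library of both treatments. HLA-B, HLA-C, HLA-E, HLA-F, MICA and MICB had a peak within 1 kb of a gene end in all 7 Lgk974 and all 8 DMSO libraries. HLA-E, which presents leader peptides to natural killer cells, had the strongest of these peaks: ranked within its own list by the deposited q value (percentile 100 is the strongest peak of a list), it stood at 94.7 to 98.1 (median 96.8) in Lgk974 libraries and 96.0 to 99.1 (median 97.3) in DMSO libraries. HLA-B was lower, at 58.5 to 81.5 (median 75.7) with Lgk974 and 56.7 to 79.9 (median 68.1) with DMSO. In both genes the ranges of the treatments overlapped. These percentiles were computed here from the authors' deposited q values and carry no test between libraries. MICA and MICB, stress-induced ligands of the receptor NKG2D, stood at medians of 63.3 and 38.6 with Lgk974 and 62.8 and 46.6 with DMSO. Their promoter windows lie at starts inside the genes. The strongest peak over the MICA window had a median of 81.3 over 15 libraries. Over the MICB window it was 39.8, in the 12 libraries that called it. HLA-G, a class I gene best known from the placenta, had a peak in 2 of 7 Lgk974 libraries (1 at 24 h, 1 at 48 h) and 4 of 8 DMSO libraries (2 at each time), a difference that did not pass (exact permutation p = 0.598). HLA genes resemble one another and their pseudogenes closely, so how reads were shared among them could affect each call, and the sources used here do not give the mapping settings.

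At HLA-B, HLA-C and HLA-F, the last without a sequence shown here, the peak summits lay within the promoter window in all 15 libraries. At HLA-B the summit of the peak had a median position of -112, counted from 0 at the annotated start (range -163 to -16 over 15 libraries), between the kappaB match at -177 to -167 and the Y boxes from -81 onward. At HLA-C the median summit was at -69 (range -105 to -43), with a kappaB match at -172 to -163 and the X2 core at -105 to -101. Both promoters hold TGACG and ATTGG within the same stretch, and neither holds the letters of the ISRE core or X1 core as searched. At HLA-F the median summit was at -118 (range -138 to -40), and its window holds an ISRE core at -156 to -147.

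All 5 genes of peptide processing and loading were called in all 15 libraries. TAP1 and PSMB9 are read in opposite directions from starts 488 bases apart, and a single region covered both. The TAP1 window holds a pair of overlapping ISRE cores (-134 to -125 and -128 to -119) and a kappaB match at -72 to -63, while the PSMB9 window holds neither. The strongest peak at the PSMB9 ends stood at percentile 80.8 to 89.0 (median 84.7) in Lgk974 libraries and 84.9 to 95.4 (median 86.7) in DMSO libraries. The peak shared by the PSMB8 start and the other end of TAP1 was stronger, at 94.7 to 99.0 (median 96.7) with Lgk974 and 95.0 to 99.3 (median 97.1) with DMSO. TAP2 had medians of 85.5 with Lgk974 and 87.4 with DMSO, and TAPBP, which bridges TAP and class I molecules, 82.6 with Lgk974 and 79.7 with DMSO. These are the strongest peaks at either end of a gene. The strongest peak over the TAPBP promoter window had a median percentile of 67.5 over all 15 libraries. No gene of this group varied in its calls, so none could enter a test of calling.

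Among the windows of all annotated starts, the ISRE core was found in 21 of 271 in the MHC (7.75%) and in 1250 of 34961 in the genome (3.58%). Counted by gene this was 20 of 211 (9.48%) and 1192 of 27195 (4.38%). Of the 16 coding MHC genes with it, 12 (75%) had a gene-end peak in all 15 libraries, among them HLA-F, TAP1, TAP2, PSMB8, TAPBP, CFB and TRIM26. ZNF311 and ZFP57 had one in 13, and OR2W1 and DDR1 in 0. Of the 138 other coding MHC genes with a window, 84 (60.9%) had one in all 15 libraries. The Y box was in 40.6% of MHC windows and 34.6% of all, the X1 core in 4.43% and 3.03%, the kappaB consensus in 12.5% and 11.3%, and the X2 core in 22.5% and 24.5%. The core CTTTGAT of TCF and LEF factors, which act with beta-catenin downstream of WNT, was in 8 MHC windows (2.95%), against 2.63% of all. Windows of the same gene overlap and class I genes share ancestry, so the shares are given without a test.

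Of 13 class II genes, 2 were called in all 15 libraries, 5 in some and 6 in none. HLA-DMA and HLA-DMB, which encode the chaperone that loads peptides onto class II molecules, were called in all 15 libraries. HLA-DMA had the highest median of the MHC gene-end peaks ranked, at percentile 96.9 to 99.95 (median 99.6) in Lgk974 libraries and 99.1 to 99.9 (median 99.4) in DMSO libraries, with a median summit at -121. The genes of the presenting molecules were mostly without calls. HLA-DRB1, HLA-DRB5, HLA-DQA1, HLA-DQB1, HLA-DQA2 and HLA-DOA had no peak within 1 kb of an end in any of the 15 libraries, and HLA-DQB2 had one in 1 DMSO library. A gene not called may still be open below a library's calling threshold, and how the line's own HLA alleles align to the reference was not tested, so 0 calls do not show closed chromatin at these genes. HLA-DRA, which encodes the alpha chain of every HLA-DR molecule, was called in 3 Lgk974 libraries (2 at 24 h, 1 at 48 h), against 5 DMSO libraries (2 at 24 h, 3 at 48 h), at percentiles 24.7 to 47.7 with Lgk974 and 42.3 to 56.3 with DMSO (exact permutation p = 0.511). HLA-DOB was called in 6 Lgk974 and 8 DMSO libraries.

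The HLA-DP pair differed in its calls. The HLA-DPB1 promoter was called in 5 Lgk974 libraries (3 at 24 h, 2 at 48 h) and 5 DMSO libraries (2 at 24 h, 3 at 48 h). HLA-DPA1 had a peak at an end in 3 Lgk974 libraries (1 at 24 h, 2 at 48 h), against all 8 DMSO libraries. The calls at HLA-DPA1 came mainly from the end opposite its start: the region 33064737 to 33065303, 168 bp inside that end, was called in 3 Lgk974 and 7 DMSO libraries (exact permutation p = 0.112), and the remaining DMSO call came from a region at the start, called in DMSO 24 h replicate 3 alone.

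**Figure D2:**
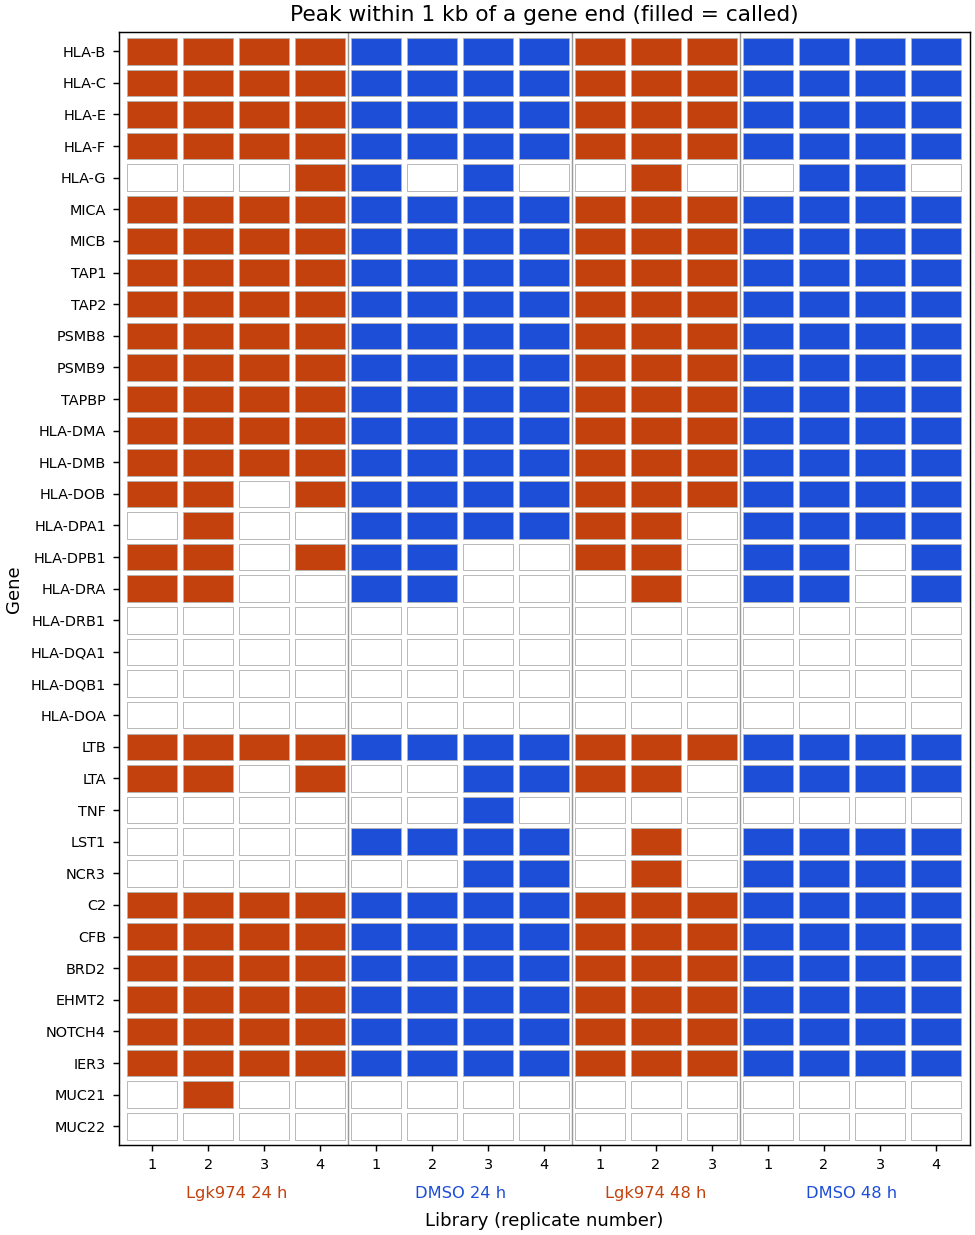
Whether each named MHC gene had a peak within 1 kb of either end (filled) in each library, with Lgk974 libraries left of DMSO libraries at each time. The class I genes shown, other than HLA-G, and peptide-processing genes are filled throughout. The HLA-DR and HLA-DQ genes are empty or patchy, and LST1, NCR3 and HLA-DPA1 are filled less often with Lgk974.

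**Figure D3:**
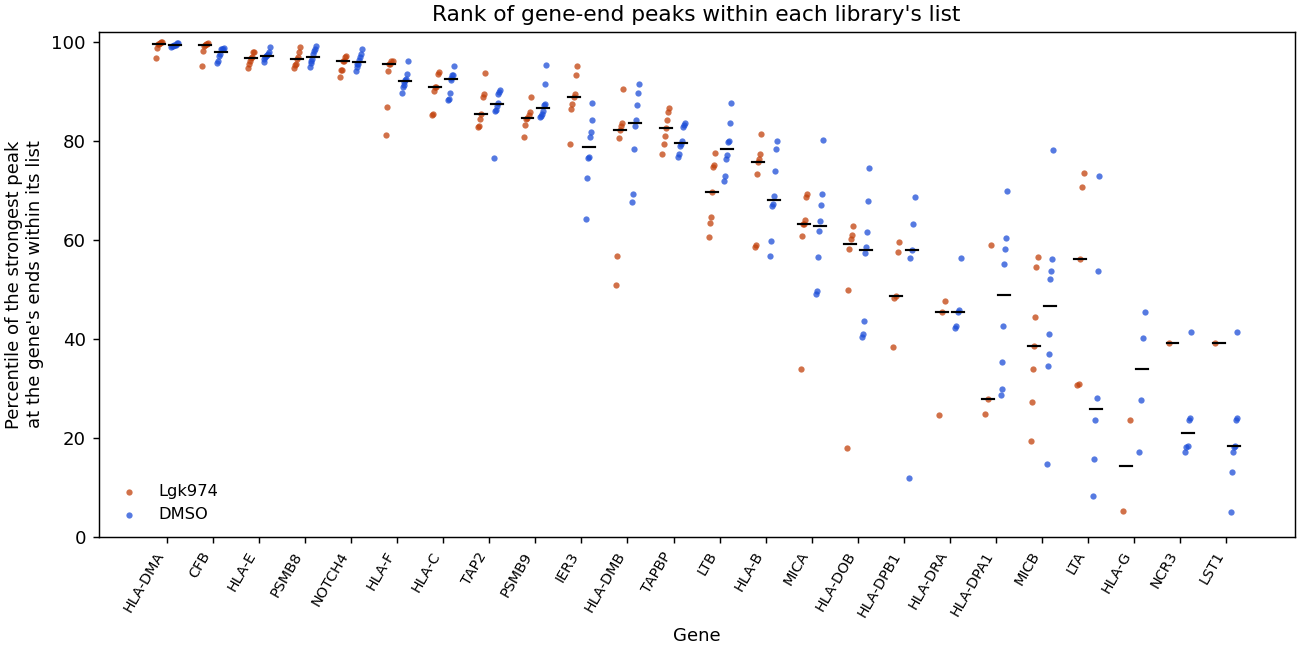
Percentile within the library's own list of the strongest peak at the ends of named MHC genes, in Lgk974 libraries (left of each pair) and DMSO libraries (right); points are libraries with a call and bars are medians. Genes are ordered by their median over all libraries with a call, and the treatments overlap at most genes.

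Over both times, 172 protein-coding genes lay in the MHC and 106 (61.6%) had a gene-end peak in all 15 libraries, against 54.3% of the 19970 coding genes of the genome, while 35 had none in any library. Only 15 were called in 3 to 12 libraries and could be tested. The test compared the share of libraries with a call, Lgk974 minus DMSO, averaged over the 2 times, by an exact two-sided permutation of treatment within time (2450 assignments, smallest possible p 0.000408), adjusted over all 2129 genes tested in the genome. No gene passed the adjusted threshold of 0.05 anywhere in the genome, the smallest adjusted p being 0.543. At an unadjusted p under 0.05, 3 of the 15 MHC genes were lower with Lgk974 and 0 were higher, where 2.77% of all tested genes were lower and 1.46% higher (4.23% in either direction). The 3 are LST1, NCR3 and HLA-DPA1, and the first 2 share a region, so they are not separate events.

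LST1, a gene of leukocytes, had a gene-end peak in 1 Lgk974 library (48 h replicate 2), against all 8 DMSO libraries (exact permutation p = 0.00204, adjusted p = 0.543). At 24 h it had one in 0 of 4 Lgk974 and 4 of 4 DMSO libraries, and the share of all genes with such a split was not counted. These 8 DMSO calls came from 2 places. Region 31589267 to 31589664, which lies inside NCR3 (the natural killer receptor NKp30) and 358 bp beyond the end of LST1, was called in 0 Lgk974 and 2 DMSO libraries at 24 h and in 1 Lgk974 and 4 DMSO libraries at 48 h (exact permutation p = 0.0306). Region 31585556 to 31585917, 360 bp before the LST1 start, was called in DMSO 24 h replicates 1 and 2 and in no other library. All these peaks were weak: the percentile was 39.3 in the Lgk974 library, against 4.95 to 41.5 (median 18.3) in the DMSO libraries. None of the 3 LST1 promoter windows was called in any library. LST1 kept an exact permutation p of 0.00571 or less when any 1 library was left out, and 0.0167 without the 3 libraries that stood apart. The NCR3 region lost its call unless the library left out was DMSO 24 h replicate 1, DMSO 24 h replicate 2 or Lgk974 48 h replicate 2 (exact permutation p up to 0.0857), and without the 3 libraries its p was 0.167. For HLA-DPA1 the exact permutation p was 0.0306; the call held only without Lgk974 24 h replicate 2, Lgk974 48 h replicate 1 or Lgk974 48 h replicate 2, with a p of up to 0.143 otherwise and 0.4 without the 3 libraries. With equal numbers of peaks kept per library, LST1 and NCR3 had no gene-end call in any library, and for HLA-DPA1 the exact permutation p was 0.0714.

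The remaining immune genes of class III were mixed. LTB, encoding lymphotoxin beta, had a gene-end peak in all 15 libraries, at percentiles 60.5 to 77.7 (median 69.6) with Lgk974 and 72.0 to 87.7 (median 78.4) with DMSO, and this peak lay outside its promoter windows, which were called in 0. LTA was called in 5 Lgk974 and 6 DMSO libraries, and TNF in 0 Lgk974 libraries and 1 DMSO library. BTNL2, a butyrophilin-like gene, was called in 3 Lgk974 and 7 DMSO libraries (exact permutation p = 0.112), and AIF1 in 2 of each. AGER, the receptor for advanced glycation end products, was called in 0. Of the 9 genes in this list 2 were called in all 15 libraries, 6 in some and 1 in none.

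Complement factors C2 and CFB share a peak near the CFB start, which was among the strongest in the MHC, at percentile 95.2 to 99.9 (median 99.4) in Lgk974 libraries and 95.8 to 98.9 (median 98.1) in DMSO libraries. The CFB window holds an ISRE core at -140 to -131 and a kappaB match, and the median summit lay before the window, at -253. C4A, C4B and CYP21A2 were called in 0 libraries; they lie in a duplicated segment of near-identical copies, so their calls are uncertain. Of the 10 genes in this list 6 were called in all 15 libraries.

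Genes of chromatin, RNA and protein handling varied little: 27 of 29 were called in all 15 libraries, including BRD2, a reader of acetylated histones, and EHMT2, a histone H3 lysine 9 methyltransferase, and the other 2 were RING1 with 13 and PBX2 with 14. Among 10 TRIM and ubiquitin-like genes 9 were called in all 15, and UBD, an interferon-inducible ubiquitin-like modifier, in 1. Of 13 olfactory receptor genes 11 were called in none. OR2J1 was called in 1 library and OR2H2 in 7.

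Of 16 epithelial and mucin genes 10 had a gene-end peak in all 15 libraries. Among these, the promoter windows of SFTA2, PSORS1C1, CCHCR1, TCF19 and SLC44A4 were also called in all 15. Those of CDSN and COL11A2 were called in 0, and that of PSORS1C2 in 1. The gene-end peak of NOTCH4 stood at percentile 92.9 to 97.2 (median 96.1) with Lgk974 and 94.1 to 98.7 (median 96.0) with DMSO. The promoter window of NOTCH4 was called in only 2 libraries. The median summit of its gene-end peak, at 32195661, lay near GPSM3, which spans 32190766 to 32195523. The GPSM3 promoter was called in all 15 libraries, and which of these genes the peak belongs to was not tested. IER3, an early response gene, shared a peak with FLOT1 that stood at 79.5 to 95.2 (median 88.9) with Lgk974 and 64.3 to 87.8 (median 78.8) with DMSO. DDR1, a collagen receptor, had no peak within 1 kb of its outermost ends but a called promoter window in all 15 libraries at an internal start. MUC21 had a gene-end peak in 1 Lgk974 library and MUC22 in none, although regions beside them were open: 30981820 to 30982590, 1128 bp from MUC21, was called in 6 Lgk974 and 8 DMSO libraries, and 31007614 to 31008336, inside MUC22, in 7 of each.

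Beyond MUC22, the region 31060005 to 31060601, 24603 bp away, was called in all 4 Lgk974 and 3 of 4 DMSO libraries at 24 h, and in all 3 Lgk974 and 2 of 4 DMSO libraries at 48 h (exact permutation p = 0.214). Its percentiles were 72.5, 65.8, 52.8 and 75.3 in the Lgk974 libraries of 24 h, against 11.1, 42.9 and 28.7 in the DMSO libraries that called it. At 48 h they were 74.7, 82.1 and 54.8 with Lgk974, against 37.3 and 25.6 with DMSO. Every Lgk974 library thus ranked the peak higher than any DMSO library that called it, and the share of all regions with such a split was not counted. The same number of top-ranked peaks (53583) was then kept from each library. All 7 Lgk974 libraries and none of the 8 DMSO libraries called the region on those lists, the smallest exact permutation p possible (0.000408). The cut uses the same q values as the percentiles, so this result restates their split and is not separate support. Its length was set by the shortest list, that of Lgk974 24 h replicate 3 (53610 peaks), which stayed almost whole. The other lists were cut further, the DMSO lists from 76756 to 127886 peaks. The adjusted p was 0.0820 over the 26322 regions tested there. Calls from every Lgk974 and no DMSO library were seen at 1.61% of all these regions at 24 h. At 48 h the share was 2.74%, and the share at both times was not counted. Without the 3 libraries that stood apart, 5 Lgk974 and 4 DMSO libraries called it on the full lists (exact permutation p = 0.233). Equal lists were not drawn again without these 3 libraries. When a peak had to cover 50% of the region, 7 Lgk974 and 3 DMSO libraries called it (exact permutation p = 0.0306, adjusted p = 0.676). Of its neighbours, 31058184 to 31058719 and 31070611 to 31071087 were called in all 15 libraries, at medians of 69.5 and 61.6 with Lgk974 and 69.0 and 57.1 with DMSO, with ranges that overlapped.

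**Figure D4:**
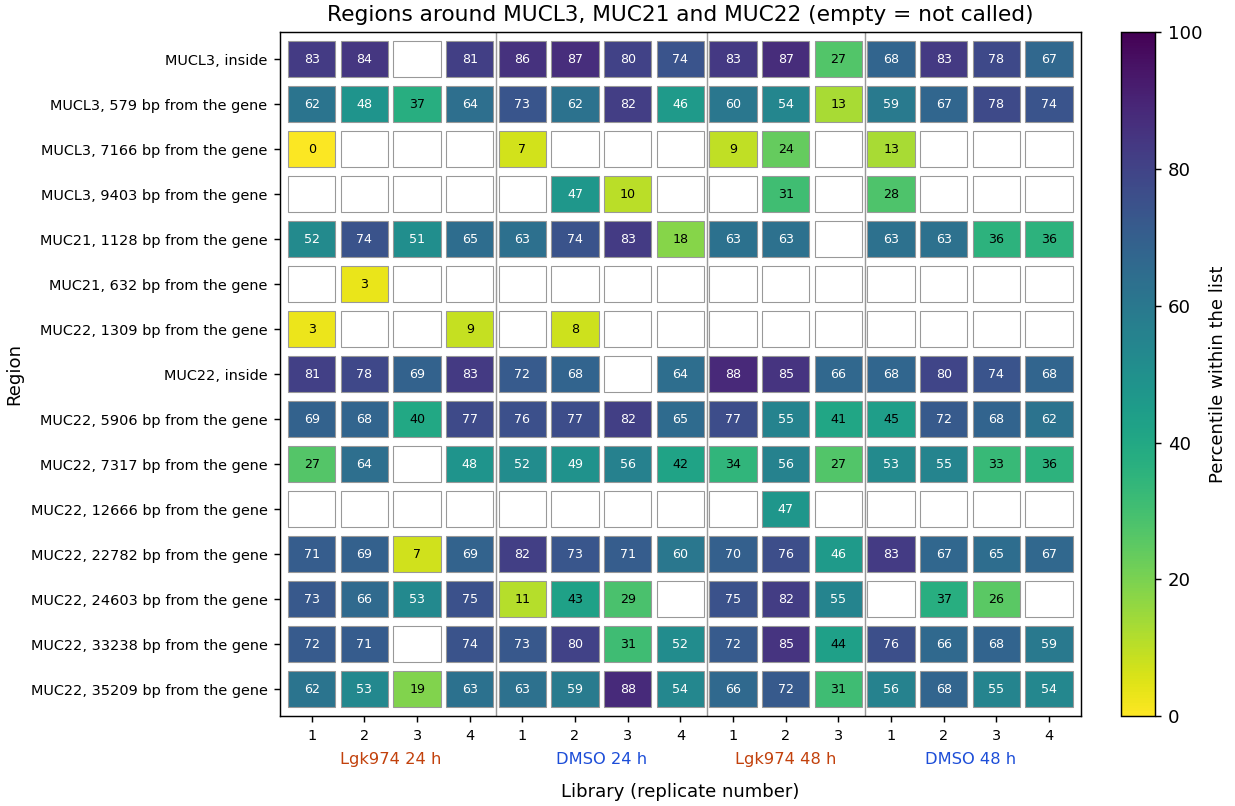
Percentile within the library's list (number and colour) of the peak in each of the 15 regions at, inside or nearest to MUCL3, MUC21 and MUC22, in order along the chromosome, with Lgk974 libraries left of DMSO libraries at each time; empty squares were not called. The region 24603 bp from MUC22 ranks between 53 and 82 in Lgk974 libraries and at 43 or below where DMSO libraries called it, and its neighbours do not show this split.

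Of the 544 MHC regions, 157 were called in 3 to 12 libraries and entered the test with the other regions of the genome (60356 in all). No region of the genome passed the adjusted threshold, and the smallest adjusted p was 0.418. At an unadjusted p under 0.05 the MHC held 3 regions higher and 2 lower with Lgk974, 3.18% of those tested, against 6.03% of all tested regions (2.96% higher and 3.08% lower). Differences in calling were positive at 74 MHC regions and negative at 81, with a median of -0.0417 in the MHC and -0.0417 over all tested regions. At 24 h no MHC region separated the treatments completely, where 0.118% of all regions had calls from every Lgk974 library alone and 0.321% from every DMSO library alone. At 48 h, 0 MHC regions had calls from every Lgk974 library and from no DMSO library (0.656% of all regions), and 1 had the opposite (1.08% of all regions). A single time cannot give an exact p below 0.0286.

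That 1 region, 29924205 to 29924569, was the MHC region with the smallest p. It lies 23 bp from HCG4B, a non-coding gene of the class I stretch. At 24 h 0 Lgk974 and 3 DMSO libraries called it, and at 48 h 0 Lgk974 and all 4 DMSO libraries (exact permutation p = 0.00204, adjusted p = 0.418). The DMSO peaks were weak, at percentiles 33.5, 21.6 and 18.9 at 24 h and 21.8, 13.5, 34.2 and 42.8 at 48 h. The difference kept an exact permutation p of 0.00714 or less when each library was left out in turn. It was 0.00333 without the 3 libraries that stood apart, where 1.49% of all regions tested were lower at an unadjusted p under 0.05. It ended when equal numbers of peaks were kept per library (exact permutation p = 1) and when fixed windows joined it to the next region, 29924633 to 29925114, which was called in 6 Lgk974 and 8 DMSO libraries.

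A pair of regions higher with Lgk974 lies by HCG20, a non-coding gene between IER3 and DDR1. Region 30793653 to 30794120, 1403 bp from HCG20, had calls from 3 Lgk974 and 0 DMSO libraries at 24 h, and from 2 Lgk974 and 0 DMSO libraries at 48 h (exact permutation p = 0.0102, adjusted p = 0.543). Its percentiles were 10.2, 17.5 and 16.9 at 24 h and 46.5 and 41.1 at 48 h, all with Lgk974. Without the 3 libraries that stood apart it had calls from every Lgk974 and from no DMSO library (exact permutation p = 0.00333). In that set 2.71% of all regions tested separated this way at 24 h and 9.36% at 48 h. At an unadjusted p under 0.05, 6.5% of them were higher and 1.49% lower with Lgk974. Region 30775263 to 30775617, inside HCG20, was called in 2 Lgk974 and 0 DMSO libraries at each time (exact permutation p = 0.0306), at percentiles from 1.47 to 44.3. The Lgk974 libraries without these calls include both of those with the shortest lists, and the part of list length in the result was not tested. The call at 30793653 held when any 1 library was left out, with exact permutation p-values up to 0.0286. The call at 30775263 held only without Lgk974 24 h replicate 1, Lgk974 24 h replicate 3 or Lgk974 48 h replicate 3, and its exact permutation p was up to 0.0857 when any other library was left out. Without the 3 libraries its exact permutation p was 0.0133. At a −log10 q of at least 5 the call at 30775263 ended (exact permutation p = 0.0714), and neither region was called in any library when equal numbers of peaks were kept.

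Region 31747053 to 31747689, inside MSH5, a gene of meiotic recombination, was called in 3 Lgk974 libraries and 1 DMSO library at 24 h and in 2 Lgk974 and 0 DMSO libraries at 48 h (exact permutation p = 0.0388). Its percentiles were 10.2 to 59.7 (5 libraries) with Lgk974 and 37.4 in the DMSO library, which was the one with the longest list. This call held only without DMSO 24 h replicate 3, Lgk974 24 h replicate 3 or Lgk974 48 h replicate 3, and otherwise reached an exact permutation p of up to 0.102. Without all 3 of these libraries all Lgk974 libraries left and no DMSO library called the region (exact permutation p = 0.00333). In that set 2.71% of all regions tested separated this way at 24 h and 9.36% at 48 h. The call ended with equal numbers of peaks per library (exact permutation p = 0.429) and when a peak had to cover 50% of the region (exact permutation p = 0.173). The other named regions had exact permutation p-values of 0.0714 or more.

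With equal numbers of peaks per library, 98 MHC regions could be tested, and 5 were higher and 1 lower with Lgk974 at an unadjusted exact permutation p under 0.05, where 7.66% of all regions tested on these lists were higher and 6.85% lower. None passed the adjusted threshold. Complete separation was seen with Lgk974 higher at 1 MHC region at 24 h (1.61% of all regions) and 4 at 48 h (2.74%), and with Lgk974 lower at 0 at 24 h (0.475%) and 0 at 48 h (3.78%). Of gene ends, 1 was higher, that of LY6G6F (3.35% of all genes tested on these lists), and 0 were lower (2.71%). Beside the region near MUC22, named here after their values were seen, 31711158 to 31711652 at LY6G6F-LY6G6D and 30839606 to 30840228 in LINC02570 were each called in 7 Lgk974 libraries and 1 DMSO library (exact permutation p = 0.00204, adjusted p = 0.0838), whereas on the full lists each was called in 7 Lgk974 and 7 DMSO libraries. Region 31834317 to 31835422, at the non-coding gene SNHG32, was called in 7 Lgk974 and 3 DMSO libraries, and 30173311 to 30174425 at TRIM15 in 6 Lgk974 and 2 DMSO libraries. The region lower with Lgk974, 28795761 to 28796289, was called in 1 Lgk974 and 7 DMSO libraries (exact permutation p = 0.0102).

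**Figure D5:**
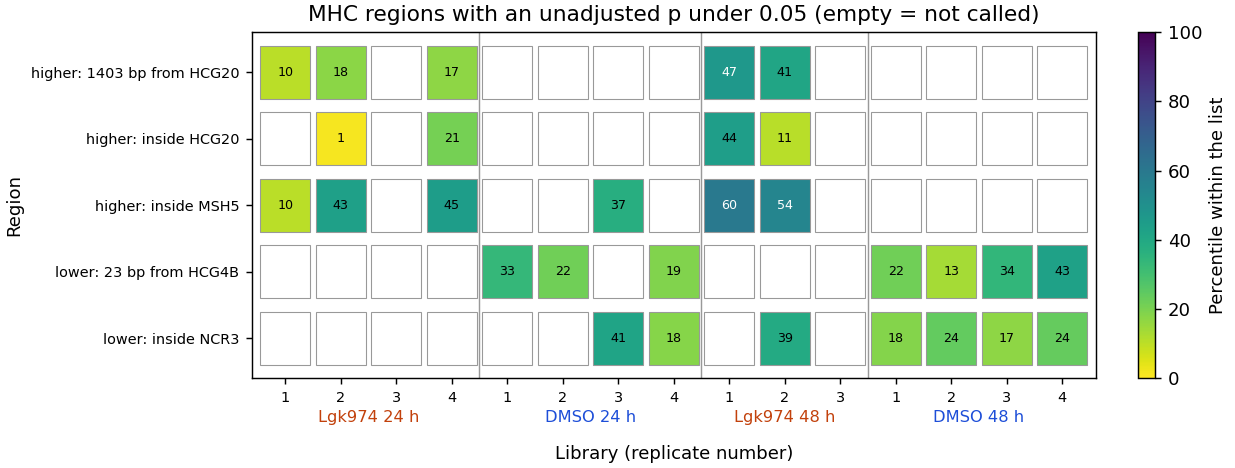
The 5 MHC regions with an unadjusted exact permutation p under 0.05, with the percentile of the peak within the library's list as number and colour and empty squares where no peak was called; Lgk974 libraries stand left of DMSO libraries at each time. The region 23 bp from HCG4B is empty in all 7 Lgk974 libraries, and the 2 regions at HCG20 are empty in all 8 DMSO libraries.

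The number of MHC regions called did not separate the treatments. It was 344, 353, 206 and 327 in the Lgk974 libraries at 24 h (mean 307.5 ± 68.5, SD, n = 4), against 370, 376, 337 and 279 in the DMSO libraries (340.5 ± 44.4, SD, n = 4). At 48 h it was 364, 391 and 234 with Lgk974 (329.7 ± 83.9, SD, n = 3), against 325, 376, 301 and 309 with DMSO (327.8 ± 33.7, SD, n = 4). The groups overlapped at both times, and the lowest counts, 206 and 234, came from the 2 libraries with the shortest lists. As a share of all regions called, the MHC took 0.376% ± 0.0246 with Lgk974 and 0.348% ± 0.0482 with DMSO at 24 h, and 0.375% ± 0.0498 with Lgk974 and 0.372% ± 0.00238 with DMSO at 48 h (SD). With lists of equal length, each library called between 206 and 242 MHC regions. No p is given for these totals, since the interval was chosen with earlier results of these data known.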

How the data were processed

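Peaks were deposited as 1 narrowPeak list per library (15 lists), and no pooled list was used. Per the submitters' processing notes, hg38 was the build, Bowtie2 and MACS2 were among the tools for alignment and peak calling, and Trimmomatic, Picard, SAMtools, HOMER and ChIPseeker were also listed. The sources used here do not give their settings, whether a transposase offset was applied to reads, or which peaks the cleaning of the lists took out, and such steps can change which weak peaks are listed and how wide they are. For each peak the authors deposited a score, a fold (a ratio over background) and −log10 p and −log10 q values, the lowest −log10 q per list being 2.06 to 2.49. These values were used only to rank or filter peaks within a list. No read counts were used, so depth is unknown and no count model or interval on reads was applied. A damaged line in 1 list was taken to be on chromosome 1. The lists held 1413185 peaks, of which 1138 off chromosomes 1 to 22 and X were left out.

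Peaks were merged into regions (overlap of at least 1 bp), and the MHC was taken as chromosome 6 from 28510000 to 33480000 by region midpoint. Regions and coding-gene ends (within 1 kb) called in 3 to 12 libraries were compared by two-sided exact permutation of treatment within time, with Benjamini-Hochberg adjustment over the whole genome at 0.05; the test was checked on simulated calls. Gene positions and promoter sequences came from RefSeq tables on GRCh38.p14, which holds promoters of 154 of the 172 MHC coding genes. No genome sequence was used here. Software was pandas 2.3.3 and numpy 2.4.6 for tables and matplotlib 3.10.9 for plots, under Python 3.11.15, in which the exact tests were also computed.

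The members and the 9 gene lists by role (115 genes, 113 matched, 2 of them by an older symbol) were chosen with earlier results of these data known. Named regions were, in each direction, up to 12 MHC regions with the smallest unadjusted p, those fully separated at 1 time and all regions nearest to MUC21 and MUC22; named genes were a fixed set of HLA, antigen-processing, complement, cytokine, chromatin and mucin genes, and every MHC gene with an unadjusted p under 0.05; a few genes of these rules and of the marker lists are not reported here. Alternatives were lists of equal length, a −log10 q of at least 5, 50% cover, fixed 500 bp windows, other limits on the number of calls, gene ends within 3 kb, promoter windows (chosen after seeing the data), a replicate block, and leaving out single libraries or the 3 that stood apart.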

Additional observations from a re-analysis of the deposited data

Results flagged for a closer look

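Among the DMSO libraries of 48 h, replicate 2 lay far from the others in how often it called MHC regions compared with regions of the genome called in as many libraries. It called MHC regions 2.82 percentage points more often than such regions, against -0.633, -0.843 and -0.558 in replicates 1, 3 and 4. DMSO 24 h replicate 2 had an excess of 2.84 percentage points, within a group whose other libraries were more spread. The list of DMSO 48 h replicate 2 was the longest of the 48 h DMSO libraries, with 104877 peaks. The rule behind this flag is set so that chance gives such a gap in about 1 in 20 groups, and this rate was not measured in these data.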

How the results depend on the processing

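No region and no gene of the genome passed the adjusted threshold under any alternative run. The MHC counts at an unadjusted p under 0.05 were 3 regions higher and 2 lower, and 0 genes higher and 3 lower. Equal list lengths gave 5 and 1 regions (7.66% and 6.85% of all regions tested) and 1 and 0 genes (3.35% and 2.71% of genes tested). With 50% cover 4 of 198 MHC regions tested were lower (2.98% of all regions tested). With fixed windows 1 of 176 was lower (3.04%). Fully separated regions were 0 higher and 0 lower at 24 h, and 0 higher and 1 lower at 48 h. With equal lists they were 1 and 0 at 24 h (1.61% and 0.475% of all regions tested). At 48 h they were 4 and 0 on those lists (2.74% and 3.78%). With fixed windows 0 were separated lower at 48 h (1.04%). Without the 3 libraries that stood apart, 7 regions were higher (6.5% of all regions tested) and 1 lower (1.49%), 2 were separated higher and 1 lower at 24 h (2.71% and 1.66%), 13 were separated higher at 48 h (9.36%, against 0.656% with all libraries) and 1 gene, LST1, was lower (1.05% of genes tested). Promoter windows, chosen after seeing the data, gave 0 lower genes (1.72% of genes tested). The causes were not tested.

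Leaving out 1 library at a time gave 1 to 7 higher and 1 to 3 lower regions, and 1 to 3 lower and 0 higher genes. The 7 came without Lgk974 48 h replicate 3 (3.99% of all regions tested were higher). The 3 lower regions came without DMSO 24 h replicate 2 (1.58% of all regions tested). The 3 lower genes came without Lgk974 48 h replicate 2 (3.22% of genes tested). Separated regions numbered 0 to 1 in either direction at 24 h, and 0 to 13 higher and 1 to 5 lower at 48 h. At 48 h the 13 came without Lgk974 48 h replicate 3 (7.64% of all regions tested) and the 5 without Lgk974 48 h replicate 2 (2.51%). Without DMSO 48 h replicate 1, 3 were separated lower at 48 h (1.65%). The MHC share of called regions, 0.0156 percentage points higher with Lgk974, ranged from 0.00215 to 0.0267 and turned to -0.0148 without the 3 libraries and -0.00464 with equal lists, all within the spread between replicates.

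Libraries of the same replicate number did not deviate together throughout: correlations ran from -0.0321 to 0.146 over 7 pairs, 5 above 0.1, and 4 of 7 were highest with their own number. A replicate block, whose smallest p is 0.0156, left 0 higher regions (0.232% of all tested), 1 lower region (0.33%), 0 higher genes (0.047%) and 1 lower gene (0.376%). Those kept were 29924205 to 29924569 and LST1 (exact permutation p = 0.0312 each), while the other 4 regions and NCR3 and HLA-DPA1 had exact permutation p-values of 0.0625 to 0.156. Read depth is unknown, so regions below a library's calling threshold could not be seen.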
